A study of Mus musculus with 2 samples.

Results

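The 34 genes described here are Myc, 2 of its classic targets in polyamine synthesis, and otherwise genes of ribosome biogenesis, measured in Lamtor1-deficient (KO) and wild-type (WT) CD4+ T cells of C57BL/6J mice. They were taken by name or synonym from the probes of the array, and the brightest probe stood for each gene. All 34 were measured, out of 14874 measured genes in all, where measured means that, in KO or in WT, both arrays gave a probe signal well above background. By role, the set held Myc, 6 genes of RNA polymerase I transcription, 5 abundant nucleolar proteins, 5 proteins of small nucleolar ribonucleoproteins (snoRNPs), 6 factors of small subunit assembly, 9 of large subunit assembly and 2 polyamine enzymes.

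Ribosomes are built in the nucleolus, where RNA polymerase I transcribes the precursor of the large ribosomal RNAs, snoRNPs modify it and guide its cleavage, and assembly factors join it to ribosomal proteins. The transcription factor Myc pairs with Max, binds the E-box CACGTG and drives many of these genes when a resting T cell starts to grow. The kinase complex mTORC1 acts on the same process, among others through the polymerase I factors encoded by Rrn3 and Ubtf. Lamtor1 is a subunit of Ragulator, which anchors mTORC1 at the lysosome.

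Both RNAs came from CD4+ T cells. Per the labels, splenic cells that were CD4+CD62L+ and naive were sorted magnetically and then kept for 5 days with antibody to CD28, plate-bound antibody to CD3, IL-2 (50 ng/ml) and rhTGFβ (1 ng/ml). The extraction protocol speaks of naive cells, so the labels do not settle whether the RNA is that of the cultured cells. The same 2 RNAs were hybridised on 2 arrays with the dyes exchanged, KO in Cy5 and WT in Cy3 on array 1, KO in Cy3 and WT in Cy5 on array 2. This is 1 RNA extract per genotype: no difference below could be tested against biological spread, no p-value is given, and ± is the technical SD of the 2 arrays. How Lamtor1 was deleted, in which cells, and how many mice were pooled are not given in the sources used here.

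Lamtor1 itself stood at log2 ratios of KO over WT of −1.97 and −1.93 on the 2 arrays, 3.86-fold lower in KO. Of 10 CD4 T cell markers measured, 2 were at least 2-fold lower in KO on both arrays, Cd4 (−1.18 ± 0.05) and Cd5 (−1.12 ± 0.12), and 0 were higher (median −0.40). Of 7 measured markers of CD8 T and NK cells, 3 were higher and 0 lower (median 0.75): Klrd1 at 1.78, Tyrobp at least 4.30-fold and Klrb1c at least 2.18-fold higher, since the WT RNA was not well above background for either. In all, 6 of these markers lay above 0 on both arrays and 1 below, Cd8b1 (−0.55). The NK receptor genes Ncr1 and Klrk1 were not well above background. Over all measured genes, 2.46% were at least 2-fold higher on both arrays and 6.88% lower. Of 10 myeloid and dendritic cell markers 7 were measured, with Fcer1g higher (4.35) and H2-Ab1 lower (−1.90). On both arrays 5 of these 7 lay above 0 and 2 below (median 0.62). Among B cell markers, Cd79a, Ms4a1, Pax5 and Blk were not well above background, while Cd79b stood at 0.62 and Cd22 at 0.32. In bulk RNA, fewer cells of a type and less RNA per cell cannot be told apart. The part of cell composition in the values below was not tested.

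After loess normalization, which centres the ratios of most genes near 0, the 34 genes as a set stood at nearly equal levels in KO and WT. A gene was called when it was at least 2-fold apart in the same direction on each array. By this rule 1 member, Pes1, was higher and 0 were lower, beside 366 higher (2.46%) and 1024 lower (6.88%) among all measured genes. The median log2 ratio of KO over WT over the members was 0.00 (0.04 on array 1 and −0.02 on array 2), against −0.02 over all measured genes. The middle of the distribution was narrow: the quartiles of the members lay at −0.18 and 0.16, and those of all genes at −0.37 and 0.25. Of the members, 27 (79.4%) lay within 0.5 of 0 on the log2 scale, compared with 68.8% of measured genes.

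**Figure D1:**
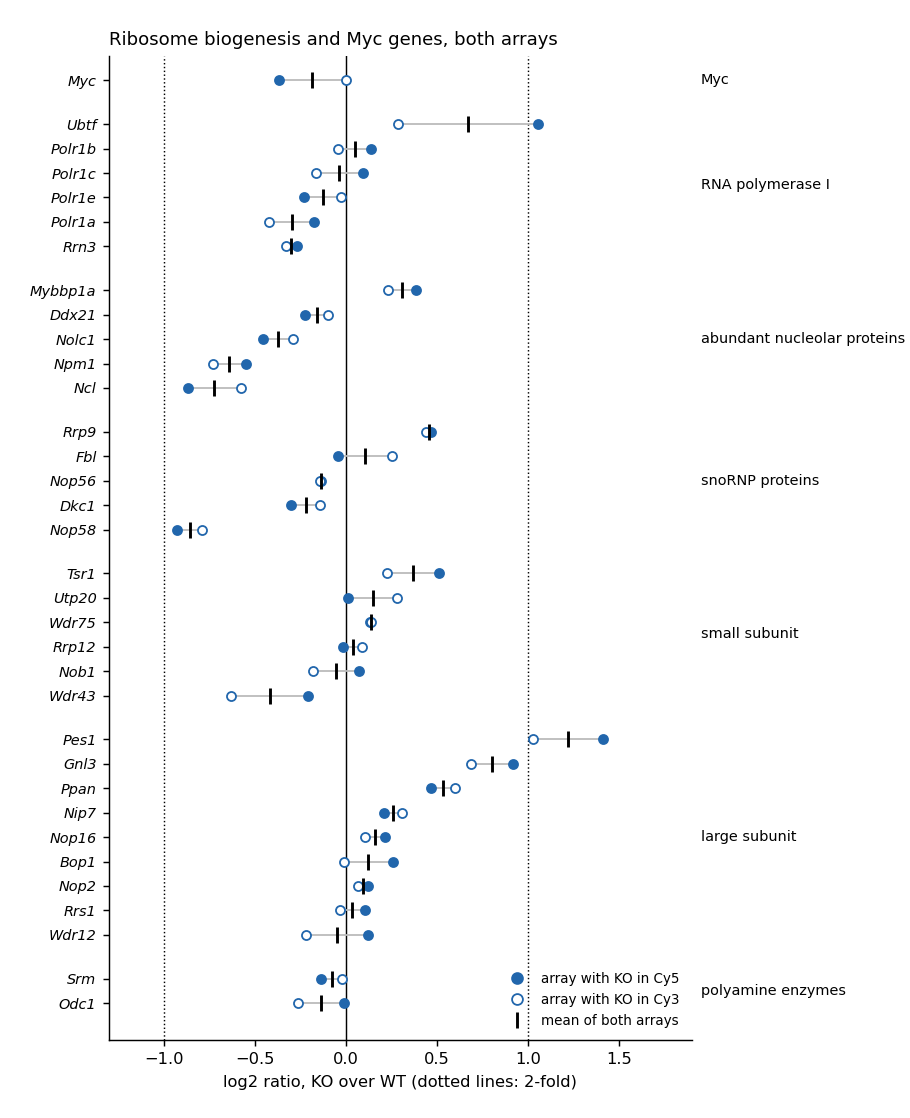
Log2 ratio of KO over WT for each of the 34 genes, grouped by role. Filled circles are the array with KO in Cy5, open circles the array with KO in Cy3, black ticks their mean, and dotted lines mark a 2-fold difference; only Pes1 lies beyond a dotted line on both arrays, and Ubtf does so on the array with KO in Cy5.

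The roles are given by their counts and medians, and no difference between them was tested. Of the 9 large subunit factors, 6 lay above 0 on both arrays and 0 below on both, with a median of 0.16. Of the 5 abundant nucleolar proteins, 4 lay below 0 on both arrays and 1 above, with a median of −0.37. The snoRNP proteins (median −0.14) and the polymerase I genes (−0.08) lay slightly below 0, and the small subunit factors (0.09) slightly above. Over all 34, 12 lay above 0 on both arrays, 13 below on both, and 9 had opposite signs on the arrays, beside 5747, 6595 and 2532 of the 14874 measured genes. The log2 ratios of the 2 arrays had a Pearson r of 0.855 and a Spearman rho of 0.780 across the 34 genes, which share both RNAs and are not replicates.

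The size of these differences depends on the dye normalization. Scanned signals, before any correction, were lower in KO for most genes: comparing KO with WT in the same dye across the arrays, the median log2 ratio was −0.49 in Cy5 and −0.50 in Cy3 over all measured genes. Over the 34 members it was −0.47 in Cy5 and −0.61 in Cy3. For the 4438 genes with a mean log2 intensity above 10, which include 16 members, it was −0.64 and −0.83. Loess normalization takes this trend with intensity out. Median centring does not, and it left the median of all genes at −0.37 (0.15 on array 1 and −0.97 on array 2). Relative to that median the 34 genes stood at −0.07 under median centring, against 0.02 under loess, and 6 of them changed sign (Fbl, Wdr12, Wdr75, Bop1, Rrs1 and Nop2), all of them at most 0.16 from the median of all genes under loess. Relative to all genes, the role medians kept their sides of 0 under median centring: −0.51 for the abundant nucleolar proteins, −0.14 for the snoRNP proteins, −0.18 for the polymerase I genes, 0.19 for the small subunit and 0.15 for the large subunit factors.

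Myc, the transcription factor at the head of the set, did not reach 2-fold. Its scanned signals were 2172 (array 1) and 1211 (array 2) in KO, against 2228 (array 1) and 3952 (array 2) in WT. After normalization the log2 ratio was −0.37 on array 1 and 0.00 on array 2 (−0.18 ± 0.26). The arrays thus put the Myc RNA between slightly lower in KO and equal, and under median centring it stood at −0.39 relative to all genes. The probe lies at chr15:61821417-61821476 (mm9, + strand), and its first 30 bases are shown to identify the transcript read.
Myc probe: aacagttgaaacacaaactcgaacagcttc

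Among the partners and rivals of Myc, 10 of 13 were measured, 1 was called higher and 1 lower (median 0.23, with 8 above 0 on both arrays). Mxd1, which pairs with Max in place of Myc and represses its targets, was higher at 1.12 ± 0.09 (1.18 and 1.05). Mxd3, a protein of the same family that is made in S phase, was lower at −1.37 ± 0.03 (−1.35 and −1.39). Both lay beyond 2-fold on each array, and in opposite directions. Mycn, a paralogue of Myc that also pairs with Max, stood at 0.96 and 1.29 (1.12 ± 0.23), beyond 2-fold on array 2 alone and so not called. Max, the common partner, stood at 0.26, and Mxd4 and Mnt, which pair with Max in place of Myc, at 0.77 and 0.37.

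The polymerase I genes were close to equal apart from 1 probe of Ubtf. Polr1a, the largest subunit of the enzyme, stood at −0.17 and −0.42, and Polr1b, the next largest, at 0.14 and −0.04. Polr1c, a subunit shared with polymerase III that was spotted 10 times on each array, stood at 0.09 and −0.17, and Polr1e at −0.23 and −0.02. Rrn3 encodes TIF-IA, the factor that makes the polymerase competent to start and that mTORC1 is known to activate. It stood at −0.27 and −0.33 (−0.30 ± 0.04), below 0 under every processing tried.

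Ubtf encodes UBF, the factor that keeps ribosomal DNA repeats open for transcription. Its brightest probe gave log2 ratios of 1.06 on array 1 and 0.29 on array 2 (0.67 ± 0.54), the largest technical SD among the 34. Scanned signals of that probe were 25022 (array 1) and 8379 (array 2) in KO, against 8740 (array 1) and 26452 (array 2) in WT, so each RNA was bright in Cy5 and dim in Cy3. The second Ubtf probe gave 0.10 and −0.17, a mean of −0.03. The probes differ in sequence in a way that is visible in their first 30 bases, with the TG repeat in capitals.
Ubtf brightest probe, chr11:102166995-102167054 (mm9, − strand): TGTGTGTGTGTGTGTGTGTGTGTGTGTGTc
Ubtf second probe, chr11:102167265-102167324 (mm9, − strand): aacgagacgtttcctaccgatctcggctgc

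The TG repeat of the brightest Ubtf probe runs over 29 of its bases. No other probe of the members holds a 2-base repeat longer than 6. Across the array, 73 measured probes of 73 genes held a TG or GT repeat of 16 or more bases, and their log2 ratios lay close together: the median was 0.66, with quartiles of 0.59 and 0.68. On the array with KO in Cy5 their median was 1.06, and with KO in Cy3 it was 0.22. The 33 probes with a CA or AC repeat had a median of 0.67 (0.73 on array 1 and 0.59 on array 2). The 18377 measured probes with neither a 2-base repeat nor such a second copy of a stretch of 20 or more bases had a median of −0.03 and quartiles of −0.36 and 0.23. On array 1 the quartiles of the TG probes were 1.02 and 1.097, and on array 2 they were 0.15 and 0.295, so the brightest Ubtf probe lay within them on each array. The second Ubtf probe, which holds no such repeat, lay outside them on each array. Whether the repeat has a part in the Ubtf value was not tested.

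Pes1, the called member, encodes Pescadillo, which with Bop1 and Wdr12 forms the PeBoW complex needed to process the large subunit's RNA. Its brightest probe had scanned signals of 484 (array 1) and 274 (array 2) in KO, against 140.0 (array 1) and 302 (array 2) in WT. The log2 ratios were 1.41 on array 1 and 1.03 on array 2 (1.22 ± 0.27, 2.33-fold higher in KO). Scanned signals of the members were mostly lower in KO, with a median log2 ratio of −0.47 in Cy5 and −0.61 in Cy3. For this Pes1 probe the KO signal was the higher within each dye. The second Pes1 probe did not show this difference: it gave 0.43 and −0.05 (0.19 ± 0.34). The other members of the complex, Bop1 (0.26 and −0.01) and Wdr12 (0.12 and −0.22), were near 0 too.

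The brightest Pes1 probe also holds a repeat. A stretch of 22 bases stands at both ends of the 60-base probe with 1 mismatch, shown in capitals, followed here by the start of the second probe, which holds none.
Pes1 brightest probe, chr11:3879948-3880007 (mm9, + strand), bases 1 to 22: aagtatgtatggCtcacacttc
Pes1 brightest probe, bases 39 to 60: aagtatgtatggTtcacacttc
Pes1 second probe, chr11:3873303-3873362 (mm9, + strand): attcagttgtgccgtaggctcactgtggag

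In no other probe of the members, the brightest Ubtf probe left out, is a stretch of more than 9 bases present in 2 copies. Of the measured probes on the array, 66 held 2 copies of a stretch of 20 or more bases, with at most 1 mismatch, and no 2-base repeat. Their median log2 ratio was 0.45 (0.33 on array 1 and 0.53 on array 2), with quartiles of 0.27 and 0.58. Of the 66, 1 (1.52%), the Pes1 probe itself, was called higher, beside 2.35% of the probes with neither kind of repeat. The Pes1 probe was the higher on array 1, whereas the median of these probes was the higher on array 2. Its 1.22 was the highest value among them. Whether the repeat has a part in the Pes1 value was not tested. With probes that hold such repeats left out, 0 of the 34 genes were called in either direction, beside 365 (2.48%) called higher and 1024 (6.95%) called lower of 14730 genes.

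**Figure D2:**
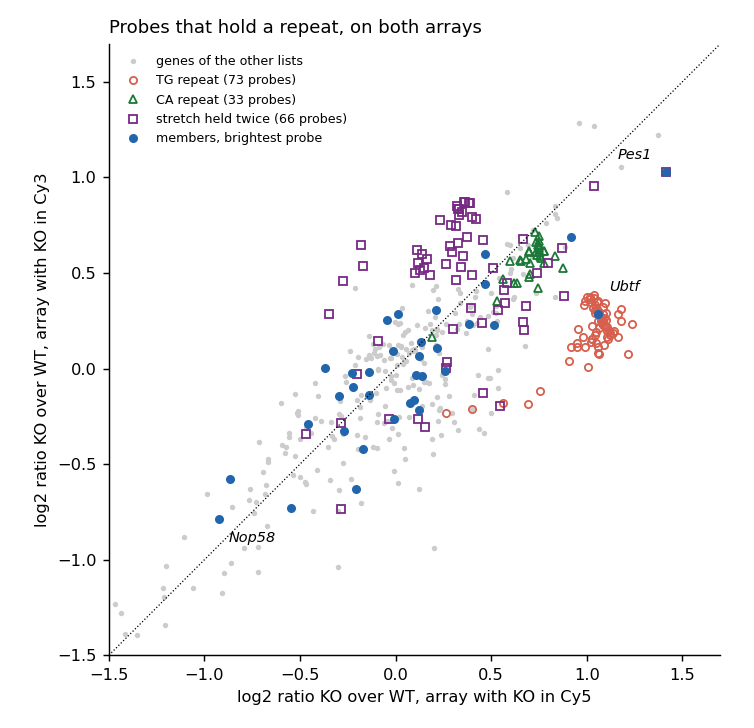
Log2 ratio of KO over WT on array 1, KO in Cy5 (x), and array 2, KO in Cy3 (y), for probes that hold a repeat, the 34 members and the genes of the other lists. The probes with a TG repeat form a tight group near 1.06 and 0.22 that contains the brightest Ubtf probe, whereas the Pes1 probe lies at 1.41 and 1.03, beyond the other probes with 2 copies of a stretch.

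The second highest member was Gnl3, which encodes nucleostemin, a GTP-binding nucleolar protein of growing and stem cells. Scanned signals of its single probe were 893 (array 1) and 430 (array 2) in KO, against 374 (array 1) and 731 (array 2) in WT. The log2 ratios were 0.92 and 0.69 (0.80 ± 0.17), which is under 2-fold, and the KO signal was the higher within each dye. Gnl3 stood at 0.73 relative to all genes even under median centring. With a looser rule of 1.5-fold on each array, Gnl3 and Pes1 were called higher and Nop58 lower, beside 6.78% of all measured genes higher and 13.5% lower.

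The other large subunit factors lay above or near 0. Ppan, the mouse Peter Pan protein of early large subunit assembly, stood at 0.47 and 0.60, and Nip7 at 0.21 and 0.31. Nip7 has a second probe, dimmer, at −0.13 and −0.30. Nop16 stood at 0.22 and 0.11, Nop2, which methylates the large ribosomal RNA, at 0.12 and 0.06, and Rrs1, which brings 5S RNA into the particle in yeast, at 0.10 and −0.03. Of 48 measured genes in a longer list of large subunit assembly factors, 0 were called in either direction (median 0.11, with 23 above 0 and 11 below 0 on both arrays). That list ran between Gnl3l (−0.57), a relative of Gnl3, and Rrp1 (0.84).

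The lowest values belonged to an snoRNP protein and to the abundant proteins of the nucleolus. Nop58 encodes a core protein of the box C/D snoRNPs, which guide methylation of ribosomal RNA. Its scanned signals were 1464 (array 1) and 728 (array 2) in KO, against 2222 (array 1) and 4008 (array 2) in WT. The log2 ratios were −0.93 and −0.79 (−0.86 ± 0.10, 1.81-fold lower in KO). The KO signal was the lower in both dyes, as scanned signals were for most genes. Across all the settings tried Nop58 lay between −1.05 and −0.74 relative to all genes.

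Nop56 and Fbl encode proteins of the same box C/D particle, and they did not stand where Nop58 stood. Nop56, the partner with which Nop58 forms a heterodimer, was at −0.14 and −0.14, and its other probes at −0.10 and −0.12 on average. Fbl, which encodes the methyltransferase fibrillarin, was at −0.04 and 0.25. Dkc1, the pseudouridine synthase of the box H/ACA particles, stood at −0.30 and −0.14. Rrp9, which binds the U3 snoRNA, was on the other side at 0.47 and 0.44 (0.46 ± 0.02). In the list of other snoRNP core and assembly genes 0 of 13 were called (median −0.19, with 9 below 0 on both arrays), from Tcof1 (−0.87), which encodes the nucleolar protein treacle, to Shq1 (0.31), an assembly factor whose probe was well above background in WT on 1 array.

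Npm1 and Ncl encode nucleophosmin and nucleolin, the histone-chaperone and RNA-binding proteins that fill the nucleolus. Scanned signals of Npm1 were 28744 (array 1) and 9528 (array 2) in KO, against 29626 (array 1) and 63662 (array 2) in WT, and its log2 ratios were −0.55 and −0.73 (−0.64 ± 0.13). Npm1 has 5 probes, and all of them lay below 0 on both arrays, with means between −0.64 and −0.44. Scanned signals of Ncl were 8352 (array 1) and 3892 (array 2) in KO, against 11327 (array 1) and 21428 (array 2) in WT, and its log2 ratios were −0.87 and −0.58 (−0.72 ± 0.21). The second Ncl probe gave −0.42 and −0.18. After loess, both genes thus lay lower in KO on each array and with each probe, by less than 2-fold. Under median centring Ncl stood at −1.35 and Npm1 at −1.29, or −0.97 and −0.92 relative to all genes. No probe was checked for binding to related genes or processed pseudogenes, of which Npm1 has many.

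**Figure D3:**
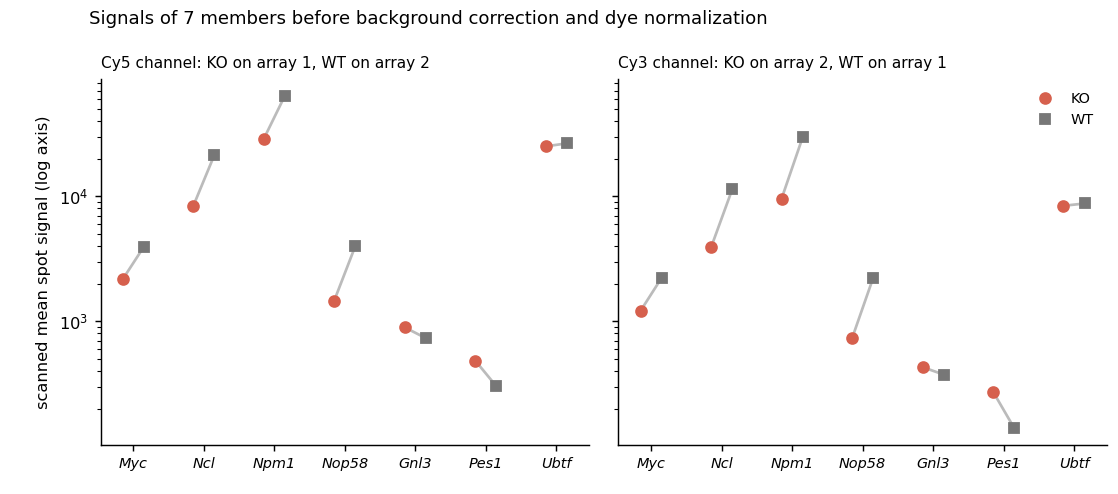
Scanned mean spot signal of 7 members, before background correction and dye normalization, in Cy5 (left) and Cy3 (right), on a log axis; circles are KO and squares WT, from different arrays within a panel. Myc, Ncl, Npm1 and Nop58 had lower KO signals in both dyes, Gnl3 and Pes1 had higher KO signals in both dyes, and Ubtf differed little. Most genes had lower scanned KO signals: over all measured genes the median log2 ratio was −0.49 in Cy5 and −0.50 in Cy3.

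The probes that stand for the lowest members show what was read, in the order Nop58, Npm1, Ncl, with the first 30 bases of each.
Nop58 probe, chr1:59768230-59768289 (mm9, + strand): catcagatgctctcaaataatcaagggagg
Npm1 probe, chr11:33052565-33052624 (mm9, − strand): cttggttttaagtatgtatggaatgttatg
Ncl probe, chr1:88247953-88248012 (mm9, − strand): ttaaaagaatcatttgagggctctgttcgt

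The remaining nucleolar proteins lay on either side of 0. Nolc1, a chaperone of snoRNPs also known as Nopp140, stood at −0.46 and −0.29, but its second, dimmer probe was at 0.33 and −0.05. Ddx21, an RNA helicase of the nucleolus, stood at −0.22 and −0.10, and its second probe at −0.55 and −0.22. Mybbp1a, which binds Myb proteins and takes part in ribosomal RNA processing, was at 0.39 and 0.23, the only abundant nucleolar protein of the 5 above 0 on both arrays.

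Among small subunit factors, Tsr1 and Wdr43 stood farthest from 0. Tsr1, a GTPase-like protein on the maturing small subunit, was at 0.51 and 0.23, and its second probe at 0.45 and 0.24. Wdr43, which encodes a protein of the complex that couples polymerase I transcription to processing, was at −0.21 and −0.63, and its second probe at −0.09 and −0.35. Wdr75, of the same complex, lay at 0.13 and 0.14, opposite in sign to Wdr43. Utp20, a large scaffold protein, stood at 0.01 and 0.28, and Nob1, the nuclease that makes the last cut of the small subunit's RNA, at 0.07 and −0.18. Rrp12, an export factor, stood at −0.01 and 0.09 and its KO signal was well above background on just 1 array. In the longer list of small subunit factors 0 of 40 were called (median 0.03, or −0.04 relative to all genes under median centring), between the helicase gene Ddx52 (−0.98) and Pwp2 (0.72), which belongs to the same early particle as the Wdr proteins.

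Odc1 and Srm, the ornithine decarboxylase and spermidine synthase of polyamine synthesis and long-known Myc targets, were near 0. Odc1 stood at −0.01 and −0.27, and its other 3 probes had means of −0.21, −0.13 and 0.23, so they did not share a direction. Srm stood at −0.14 and −0.02, and its second probe averaged 0.00. Of 11 other measured genes of the polyamine pathway, the median was −0.34, with 6 below 0 and 4 above 0 on each array, and 1 was called lower, Paox (−1.10 ± 0.06), which encodes polyamine oxidase.

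**Figure D4:**
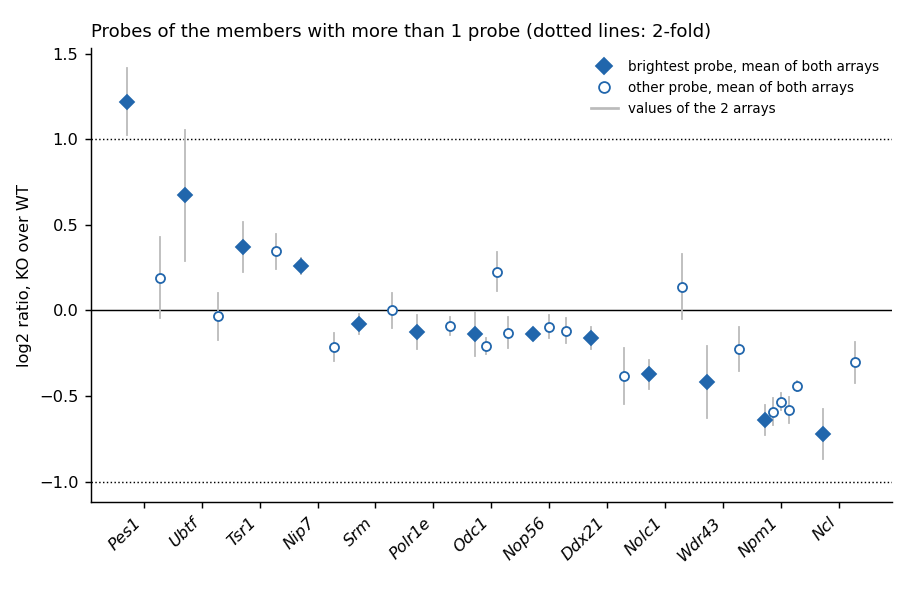
Log2 ratio of KO over WT for every probe of the 13 members with more than 1 probe; diamonds are the brightest probe, open circles the others (means of the 2 arrays), and grey lines join the 2 arrays. The probes of Tsr1, Polr1e, Nop56 and Srm lie closest together, whereas those of Pes1 and Ubtf lie farthest apart.

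Probes of the same gene mostly gave like values. For the 13 members with more than 1 probe, the 19 further probes differed from the brightest by a median of 0.11 on the log2 scale, and 13 of them lay within 0.3. The spread over probes was largest for Pes1 (1.03) and Ubtf (0.71), the genes whose brightest probes hold repeats, followed by Nolc1 (0.51), Nip7 (0.47), Odc1 (0.43) and Ncl (0.42).

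As a list, Myc targets of other functions had a lower median than the biogenesis genes, though their values were mixed. Of 49 measured Myc targets outside ribosome biogenesis, 12 were lower in KO and 0 higher, beside 6.88% lower and 2.46% higher among all measured genes. The list had a median of −0.51 and quartiles of −1.04 and 0.02. On both arrays 29 of the 49 lay below 0 and 11 above, and the highest value was 0.68. Relative to all genes the median was −0.49 under loess and −0.49 under median centring. The lowest were Mthfd2, a mitochondrial enzyme of one-carbon metabolism (−2.67 ± 0.01), Slc7a5, a transporter of large neutral amino acids (−2.09 ± 0.12), and Plk1, a mitotic kinase (−1.87 ± 0.20). The same list includes the glycolytic gene Ldha and the transferrin receptor gene Tfrc, also called lower. Among the 34 genes 0 were called lower, with a median of 0.00. The lists share the RNAs and were chosen with results of these data known, and no test of the difference between them was made.

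Under loess, the other machinery of ribosome production lay nearer to the 34 genes. Of 53 measured cytosolic ribosomal protein genes, Rps2 was higher (1.15 ± 0.16) and 0 were lower, with a median of 0.00. For 25 of them the arrays had opposite signs, and relative to all genes their median was 0.02 under loess but −0.31 under median centring. The Rps2 value is that of a probe placed at chr17:42864841-42864900 (mm9). Whether that probe reads Rps2 itself or a related gene or pseudogene was not checked. Of 11 further polymerase I genes 1 was lower, Taf1d (−1.35 ± 0.17), a subunit of the selectivity factor SL1 (median −0.12). Of 12 RNA exosome genes 0 were called (median −0.10), from Exosc7 (−0.67) to Exosc4 (0.34).

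**Figure D5:**
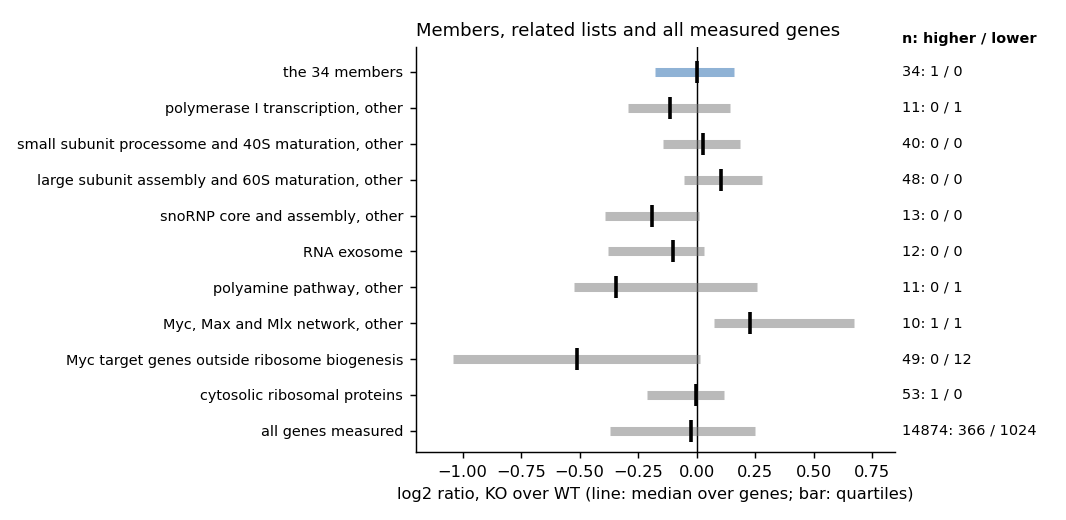
Median (line) and quartiles (bar) of the log2 ratio of KO over WT over the genes of each list, with the number measured and the numbers called higher and lower in KO on the right. Under loess, the members and the ribosomal proteins centre on 0, and the Myc targets outside ribosome biogenesis have a median of −0.51.

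Promoters were examined for E-boxes, because Myc with Max binds CACGTG and, less tightly, CACGCG and CATGTG. Sequences were those of RefSeq on GRCm38.p6, from 250 bases before to 50 after each gene's start, searched on both strands (CACGCG reads CGCGTG and CATGTG reads CACATG on the other; the motifs differ in their letters, so a site counts for 1 of them). Of the 34 genes 27 had an entry, which leaves out Bop1, Fbl, Myc, Npm1, Rrp12, Rrs1 and Srm. CACGTG stood in 7 of the 27 (25.9%), against 11.9% of the 9212 measured genes with an entry and 8.09% of all 27025 genes. CACGCG stood in 11 (40.7%), against 19.9% of measured and 10.49% of all genes, and CATGTG in 5 (18.5%), against 10.497% of measured and 15.9% of all genes. A match is a description of letters in a window and not a bound site.

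The 7 genes with CACGTG were Pes1, Tsr1, Mybbp1a, Utp20, Nop2, Rrn3 and Wdr43, and Rrn3 held it at 2 places. The sites, which these promoters share, are shown in capitals with up to 12 bases on each side within the window. They stand in the order of the log2 ratios of the genes' brightest probes, from highest to lowest. Letters read along the strand of each gene, which is − for Utp20 and + for the others.
Pes1, chr11:3963965-3963994: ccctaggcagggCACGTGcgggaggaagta
Tsr1, chr11:74898092-74898121: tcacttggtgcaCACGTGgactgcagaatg
Mybbp1a, chr11:72441355-72441376: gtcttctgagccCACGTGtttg
Utp20, chr10:88826765-88826789: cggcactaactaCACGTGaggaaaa
Nop2, chr6:125131811-125131840: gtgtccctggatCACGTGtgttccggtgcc
Rrn3, chr16:13780472-13780501: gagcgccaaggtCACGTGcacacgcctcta
Rrn3, chr16:13780639-13780668: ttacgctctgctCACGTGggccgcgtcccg
Wdr43, chr17:71616220-71616249: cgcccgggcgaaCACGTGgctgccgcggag

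The members with CACGTG did not lie on 1 side of 0. Their log2 ratios ran from −0.42 (Wdr43) to 1.22 (Pes1, brightest probe; 0.19 with its second probe) with a median of 0.15, against a median of −0.05 for the members without it. Over all 9212 measured genes with a promoter entry, the medians were 0.04 with CACGTG (1096 genes) and −0.06 without. The windows of Pes1, which is the highest of the 34 genes by its repeat-bearing probe alone, and of Nop58, the lowest, are shown in full. The Pes1 window holds CACGTG and, on the other strand, CACGCG, both in capitals below, whereas the letters of none of the 3 motifs are in the Nop58 window.
Pes1 promoter, chr11:3963725-3964024 (GRCm38.p6, + strand): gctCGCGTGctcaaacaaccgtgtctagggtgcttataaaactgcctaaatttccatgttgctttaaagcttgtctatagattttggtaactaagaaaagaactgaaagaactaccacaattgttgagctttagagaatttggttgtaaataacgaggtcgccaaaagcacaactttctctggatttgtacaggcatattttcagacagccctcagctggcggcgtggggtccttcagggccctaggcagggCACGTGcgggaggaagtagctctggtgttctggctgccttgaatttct
Nop58 promoter, chr1:59684756-59685055 (GRCm38.p6, + strand): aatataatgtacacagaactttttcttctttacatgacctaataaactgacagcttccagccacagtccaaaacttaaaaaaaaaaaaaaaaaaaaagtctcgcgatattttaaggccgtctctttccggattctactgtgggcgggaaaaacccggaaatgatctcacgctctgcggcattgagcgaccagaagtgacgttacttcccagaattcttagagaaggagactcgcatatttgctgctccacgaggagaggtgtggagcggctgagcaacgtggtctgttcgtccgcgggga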

How the data were processed

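Spots were read with Agilent Feature Extraction, version 10.7.3.1 per the file headers and 10.5.1.1 per the submitters' processing notes. The deposited scanner tables give uncorrected mean and background intensity per spot and dye, beside the software's own corrected signals, per the file headers. Log10 ratios of the dyes, deposited by the authors in the series matrix, equalled the software's in every row. Per the labels, 400 ng of each cRNA was hybridised at 65 °C for 17 h.

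With limma 3.58.1 (R 4.3.3), normexp with an offset of 50, which shrinks ratios of dim probes, was followed by loess on each array, control spots at weight 0. Spots marked as outliers (206 and 214) were left out, spots of a probe averaged and ratios turned to KO over WT. The steps were also run on simulated arrays with known ratios and a dye trend with intensity. Those arrays held no trend of KO against WT with intensity, so the run cannot show how loess treats the trend in the scanned signals. None of the 44397 spots was saturated on either array, 43.7% to 51.7% of non-control spots were well above background per RNA and array, and 2 arrays give little precision. The 39429 probes carried 31709 names. RefSeq (GRCm38.p6) supplied the name through an accession for 26055 probes, a symbol for 3195 and a synonym for 930. The remaining 9249 had no match and kept their deposited name. The measured genes, and the shares called among them, therefore include entries without a RefSeq name. All 34 members were matched through an accession. Probe positions are those of the files (mm9), and no exon or UTR annotation was used here.

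The 34 members, the gene lists and the motifs were chosen with earlier results of these data known. Named are all members, Lamtor1 and, per other list, the called genes (at most 3 highest and 3 lowest) or else the highest and lowest. Cd8b1 and the markers named as not well above background also fall outside that rule. Mycn, Max, Mxd4, Mnt, Ldha and Tfrc were added after their values were seen, and probe repeats were examined after the Pes1 and Ubtf probes were seen to disagree.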

Additional observations from a re-analysis of the deposited data

How the results depend on the processing

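Of the 34 genes, 1 was called higher and 0 lower with the software's processed signals, the series matrix values, a normexp offset of 1, no background subtraction, no filter or a stricter filter on dim probes, outlier spots kept, and array 2 alone, with KO in Cy3. The call was Pes1 each time. The number called higher was 0 under median centring, 0 with the median over the probes of a gene, 0 with the brightest probe without a repeat (chosen after seeing the data), 2 on array 1 alone, where KO was in Cy5 (Pes1 and Ubtf), and 2 under the 1.5-fold rule, where the number called lower was 1. Pes1 itself ranged from 0.19 without the repeat-bearing probe to 1.75 with the processed signals. The median over the 34 genes was 0.0557 with the processed signals, 0.0557 with the values of the series matrix, and −0.45 under median centring, which put all genes at −0.37. Elsewhere it lay between −0.04 and 0.04. Over all measured genes the processed signals gave 867 higher and 1614 lower calls and median centring 111 higher and 881 lower, so that both counts of the main setting (366 and 1024) depend on it. Leaving median centring aside, 24 of the 34 genes kept their sign under every setting and on each array, 11 above 0 and 13 below. No paired analysis was possible because each genotype had a single RNA extract. Biological spread was not measured, and dim probes, such as those of Rrp12 and Utp20, have ratios shrunk toward 0 by the offset.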
